A study of Mus musculus with 6 samples.

Results

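A group of 47 genes that encode the DNA replication machinery was examined in B16F10 cells, a mouse melanoma line, after depletion of OSGEP. The members were chosen by gene symbol, as the subunits of the origin recognition complex, the MCM helicase, GINS, the replicative polymerases and the clamp and clamp loader, with the factors that load and fire the helicase, the single-strand binding protein RPA and the enzymes that finish Okazaki fragments. The control cells (shCtr, labelled WT, n = 3) carried a scramble shRNA and the depleted cells (shOSGEP, labelled KD OSGEP, n = 3) carried 1 hairpin against Osgep. Both were delivered by lentivirus with puromycin selection in 3 independent infections, so that any effect of the single hairpin other than on Osgep cannot be told apart from the loss of OSGEP. OSGEP is the catalytic subunit of KEOPS, which places the t6A modification on tRNAs that read codons beginning with A (ANN codons). All 47 members were found among the 55487 genes listed, and all 47 were among the 12669 genes expressed highly enough to be tested.

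Replication starts where ORC marks origins. In G1, CDC6 and CDT1 load the ring of MCM2 to MCM7 onto ORC-bound DNA, and geminin holds CDT1 back after S phase has begun. The kinase of CDC7 and DBF4, with MCM10, then lets CDC45 and GINS join the ring to form the active helicase. DNA polymerase alpha-primase lays down primers, RFC loads the PCNA clamp, polymerase epsilon copies mainly the leading strand and polymerase delta the lagging strand, and RPA covers the single strands. Most of these genes are transcribed at the G1/S boundary under E2F transcription factors, and their mRNAs are higher in dividing than in resting cells. In a bulk library, fewer cells in S phase and less of an mRNA in each cell cannot be told apart.

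Because E2F control is shared by much of this group, promoter windows were searched for the E2F-type motif, meaning any of TTTCCCGC, TTTCGCGC, TTTGCCGC or TTTGGCGC on either strand. RefSeq windows (GRCm38.p6), which run from 250 bases before to 50 bases after a transcription start, were matched by symbol for 39 of the 47 members, giving 49 windows. Windows were not matched for Gmnn, Mcm4, Gins1, Gins2, Gins4, Prim2, Pole and Rfc2. The motif was present in 17 of the 49 windows (34.7%), which belong to 16 genes, compared with 2.26% of all 32851 windows and 3.97% of the 12368 windows of tested genes. A CCAAT box, read as CCAAT on either strand, was present in 49% of the members' windows and in 38.1% of those of tested genes. The 16 genes were Orc1, Orc3, Cdc6, Cdt1, Mcm3, Mcm5, Mcm6, Mcm7, Gins3, Pola1, Pold1, Pold3, Pole2, Pole4, Rfc3 and Lig1. The bases around the matches upstream of the RefSeq start are shown 5′ to 3′ for 6 of them. Those 6 were taken in order of unadjusted edgeR p among the members whose values in each library are given below. Mcm6, Mcm5, Rfc3 and Orc1 had a Log2FC below 0, and Orc3 and Pole4 had one above 0. Capitals mark the motif.
Mcm6, chr1:128359734-128359826, minus strand: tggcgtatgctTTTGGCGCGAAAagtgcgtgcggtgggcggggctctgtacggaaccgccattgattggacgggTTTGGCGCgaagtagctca
Mcm5, chr8:75109345-75109378, plus strand: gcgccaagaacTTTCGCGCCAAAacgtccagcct
Rfc3, chr5:151651209-151651229, minus strand: acgtcgcacgcTTTCGCGCtc
Orc1, chr4:108579416-108579445, plus strand: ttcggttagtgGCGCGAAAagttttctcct
Orc3, chr4:34614965-34614994, minus strand: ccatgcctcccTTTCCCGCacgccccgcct
Pole4, chr6:82652890-82652919, minus strand: ctctacccggcGCGGGAAAggggccgaaat
The Mcm6 stretch held 3 matches and the Mcm5 stretch held 2, with the first run of capitals in Mcm6 and the single run in Mcm5 each holding 2 matches that overlap on opposite strands. Orc1 and Pole4 carried it on the strand opposite to the gene, and the Orc1 and Pole4 matches and that of Rfc3 lie inside the gene intervals of the GENCODE M21 annotation. By that annotation the stretches of Rfc3, Orc1 and Pole4 overlap an exon of the same gene, that of Orc3 overlaps an exon of Rars2 on the opposite strand, and those of Mcm6 and Mcm5 overlap no exon. A match is a run of letters and not a measured binding site.

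The 16 genes with a motif had a median Log2FC (log2 of shOSGEP over shCtr, fitted by edgeR) of -0.82, with 14 of 16 below 0. The 23 genes whose windows held no match had a median of -0.31, with 17 of 23 below 0. By replicate, the medians of the log2 ratio with and without a motif were -0.54 and -0.37 in replicate 1, -1.78 and -0.20 in replicate 2, and -0.25 and -0.22 in replicate 3. The gap between genes with and without the motif was therefore widest in replicate 2, and it was not tested.

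The targeted gene was lower in every shOSGEP library. Osgep (chromosome 14, 50906478 to 50924893, minus strand, GRCm38) gave 20.6, 58.6 and 21.8 CPM (counts scaled to library size, with TMM factors) in shCtr but 4.28, 0.542 and 5.52 CPM in shOSGEP, in order of replicate number as in all lists of libraries here. Its Log2FC was -3.29 (SE 0.876, exact permutation p = 0.1, the smallest that 3 libraries against 3 can give, adjusted p = 1.00 after Benjamini-Hochberg adjustment of edgeR's quasi-likelihood test). With weights for sample quality and the replicate number as a block, limma-voom gave Osgep an adjusted p of 1.45e-26. That fit called 1403 of 12669 genes in either direction. Libraries held 18915587 to 29487384 counts. The library shCtr 2 stood apart, with a TMM factor of 0.690 where the others had 1.04 to 1.14, and with 0.585% of counts in mitochondrial genes where the others had 1.30 to 4.75%. Melanocyte markers summed to 17038 to 29599 CPM in shCtr and to 3551 to 18083 CPM in shOSGEP, whereas the 14 markers of leukocytes, endothelium, fibroblasts and keratinocytes summed to 0.688 to 4.42 CPM in any library, with 8 of the 14 at 0 in all 6. The part that shCtr 2 or the melanocyte markers have in the results was not tested, apart from the fits that leave out shCtr 2.

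Most replication genes were measured at a lower level in shOSGEP cells, but no single gene passed the test. Of the 47 members, 39 had a Log2FC below 0 and 8 had one above 0, where 52.7% of all tested genes were below 0. The median was -0.58 over the members and -0.03 over all genes tested, and the members ranged from -1.29 (Mcm5) to 0.66 (Orc5). At an adjusted p under 0.05, 0 of 47 members were called by edgeR, as were 0 of all genes (0%). DESeq2 called 0 members as well, and 14 of all 12669 genes. The smallest unadjusted edgeR p of a member was 0.0522, for Rpa2, so that 0 members had an unadjusted p under 0.05 by edgeR, against 2 by DESeq2. At the threshold of the study, a Log2FC beyond 0.5 with an unadjusted p under 0.05, edgeR passed 0 members and 2.02% of all genes. DESeq2 passed 2 members (Rfc5 and Rpa2) and 2.92% of all genes. By edgeR, 10 of the members were lower with an unadjusted p under 0.1, where 1.98% of all genes were.

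Spread between libraries was large against these differences. In 6 members (Mcm6, Prim2, Pole2, Pole3, Rfc3 and Rfc4) all shOSGEP libraries lay below all shCtr libraries, which held for 2.87% of all genes, and 0 members lay entirely above. When libraries of the same replicate number were compared, 27 of the 47 members were lower in all 3 comparisons, against 17.2% of all genes, and 35 of 47 (74.5%) were lower in both replicate 1 and replicate 3, against 32.5%. The median log2 ratio of the members was -0.47 in replicate 1, -0.98 in replicate 2 and -0.24 in replicate 3, and that of all genes was -0.03, 0.11 and -0.01. A smaller difference of the same direction was therefore seen in replicates 1 and 3. Without both replicate 2 libraries, the median Log2FC of the members was -0.32 with 40 of 47 below 0. Without shCtr 2 alone it was -0.53 with 42 of 47 below 0, and without shOSGEP 2 alone it was -0.37. In log2 CPM, the members' median deviation from their mean over all libraries was 0.31 in shCtr 2 and -0.75 in shOSGEP 2. The library shOSGEP 2 also had the lowest Osgep level, at 0.542 CPM, so fits without replicate 2 leave out that library.

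Deviations of same-numbered libraries were correlated, as were those of some libraries of different numbers. The replicate number was also fitted as a block. The block in edgeR still called 0 members, with 2 (Mcm6 and Pole2) past the threshold of the study, as were 2.94% of all genes. Limma-voom with weights for sample quality and the replicate block (the blocked limma-voom fit) called 23 members lower and 0 higher at an adjusted p under 0.05, where 4.34% of all genes were called lower. Those 23 were Orc1, Cdc6, Cdt1, Gmnn, Mcm4, Mcm5, Mcm6, Mcm7, Mcm10, Cdc45, Gins1, Gins2, Pola2, Prim2, Pold3, Pole2, Rfc3, Rfc4, Rfc5, Pcna, Rpa2, Lig1 and Fen1. Leaving out replicate 2 and keeping the block in edgeR, a setting chosen after seeing the data, called 9 members lower (Mcm4, Mcm6, Mcm10, Prim2, Pold3, Pole2, Rfc4, Rpa2 and Fen1), where 1.65% of all genes were called lower. That fit had 1 residual degree of freedom, and the blocked limma-voom fit had 2. The blocked limma-voom fit called 1403 of 12669 genes in either direction, where edgeR with the block and all libraries called 0. Adjusted p-values of the blocked limma-voom fit, here and below, therefore lean on a spread estimated over all genes.

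**Figure D1:**
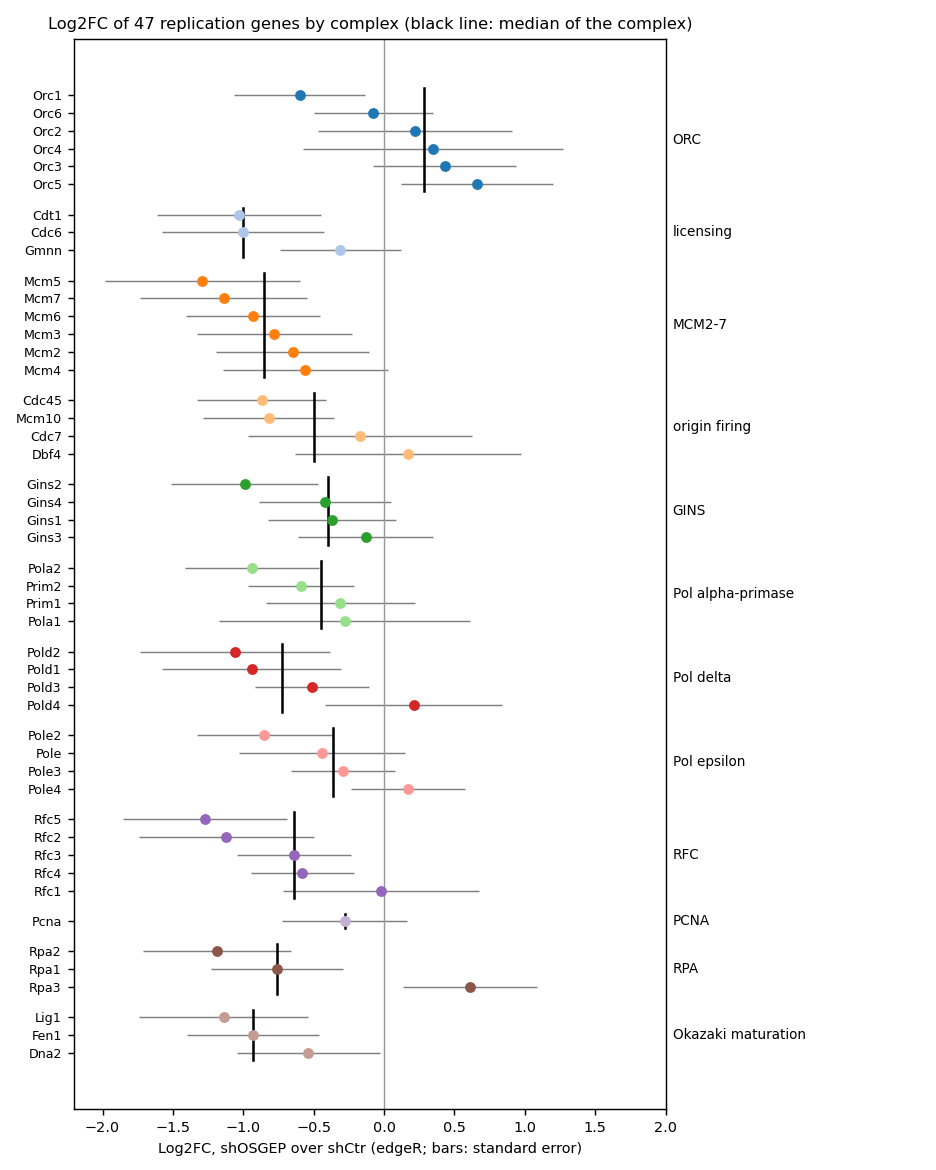
Log2FC of each of the 47 replication genes (x axis, shOSGEP over shCtr, log2 scale, edgeR fit) with its standard error as a grey bar, grouped by complex, and a black line at the median of each complex. The 6 MCM2-7 genes all lie below 0, with a median of -0.86, while 4 of the 6 ORC genes lie above 0 and their bars cross or approach 0.

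Complexes were set side by side by the median of their subunits, without a test, because subunits measured in the same 6 libraries are not replicates. MCM2-7 had a median Log2FC of -0.86, RFC of -0.64, the 12 subunits of the 3 polymerases of -0.48 and GINS of -0.39, whereas ORC had a median of 0.29. In replicate 1 alone the medians of the log2 ratio were -0.53 for MCM2-7, -0.51 for RFC, -0.40 for the polymerases, -0.47 for GINS and -0.04 for ORC. In replicate 3 they were -0.21, -0.14, -0.27, -0.31 and -0.08 in the same order. In replicate 2 they were -2.03, -0.98, -0.76, -0.20 and 1.74. The order among MCM2-7, RFC, the polymerases and GINS thus changed from one replicate to the next, and ORC had the median nearest 0 in replicates 1 and 3. Without both replicate 2 libraries, the median Log2FC was -0.30 for MCM2-7, -0.31 for RFC, -0.30 for the polymerases, -0.32 for GINS and -0.003 for ORC.

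**Figure D2:**
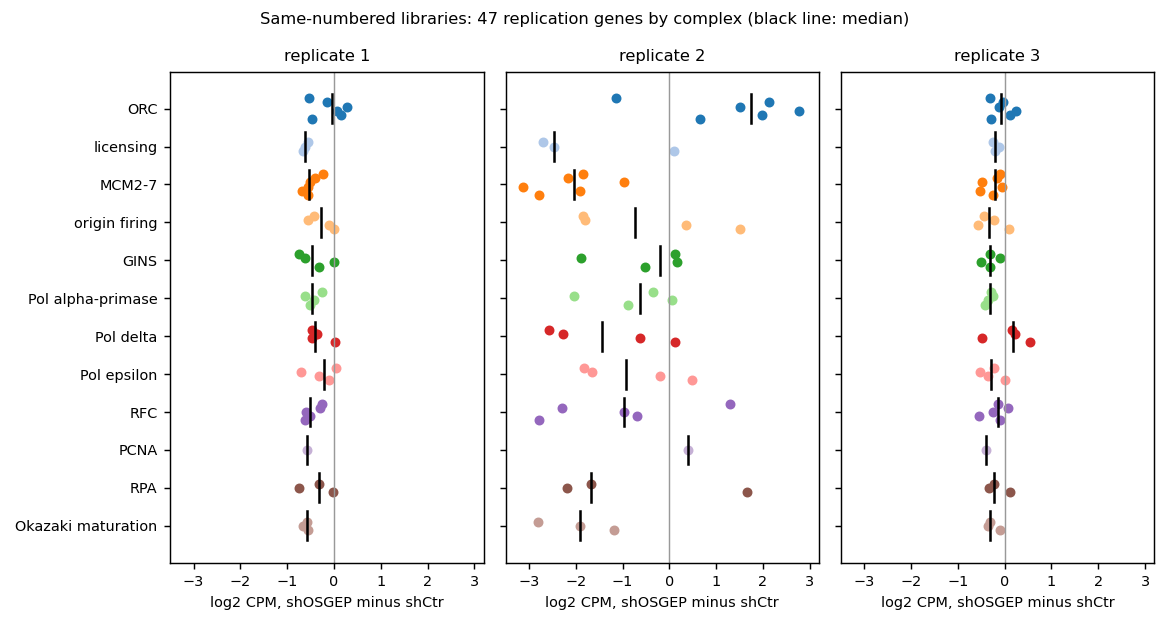
Log2 CPM in shOSGEP minus log2 CPM in shCtr for libraries of the same replicate number (x axis, one panel per replicate), with one point per gene, rows for the complexes and a black line at the median of each. Replicate 2 spreads from -3.12 to 2.78, while replicate 1 spans -0.75 to 0.27 and replicate 3 spans -0.57 to 0.54.

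Levels per transcript length ranged widely within and between the complexes. In shCtr, the mean level was 42.1 to 188 CPM per kb across the MCM2-7 genes and 18.6 to 51.9 CPM per kb across RFC, against 5.55 to 23.2 CPM per kb across ORC and 3.5 to 47.9 CPM per kb across GINS. Pcna had the highest mean of the 47, at 227 CPM per kb, and Gins3 the lowest, at 3.5 CPM per kb. The lowest count of any member in any library was 59, for Orc4 in shCtr 2.

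ORC subunits were mixed in direction. In that complex 2 subunits had a Log2FC below 0 and 4 had one above 0. Orc1, a known E2F target, read 16.4, 14.9 and 18.9 CPM in the shCtr libraries and 11.3, 6.78 and 15.1 CPM in the shOSGEP libraries. It was lower in each same-numbered comparison, although shOSGEP 3 reached above shCtr 2, and its Log2FC was -0.60 (SE 0.465, exact permutation p = 0.2). Orc6, which also overlaps Vps35 on the opposite strand, stood at 45.5, 23.6 and 33.1 CPM in shCtr, compared with 32.9, 37.1 and 27 CPM in shOSGEP, giving a Log2FC of -0.08 (SE 0.421). It was lower in replicates 1 and 3 and higher in replicate 2.

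The other 4 ORC subunits had positive values, which were largest in replicate 2. Orc2 had CPM values of 118, 14 and 70.8 in shCtr and of 106, 61.5 and 69 in shOSGEP. Orc3 was measured at 37, 12.1 and 28.9 CPM against 44.5, 34.3 and 26.5 CPM. In both genes shCtr 2 was the lowest of the 6 libraries and the groups overlapped. Orc4, with the lowest GC content of the members (36.8%), read 63.1, 2.9 and 25.8 CPM in the shCtr libraries and 66.3, 20.5 and 30.6 CPM in the shOSGEP libraries. Orc5, on chromosome 5 from 22486485 to 22550429, was measured at 30.6, 9.78 and 17.6 CPM against 33.7, 38.8 and 19.1 CPM. Again shCtr 2 was the lowest library of each gene. The Log2FC values were 0.22 for Orc2 (SE 0.692), 0.43 for Orc3 (SE 0.511), 0.35 for Orc4 (SE 0.925) and 0.66 for Orc5 (SE 0.54, exact permutation p = 0.2). Without shCtr 2 the Log2FC of Orc2 became -0.26 and that of Orc4 -0.19, whereas Orc3 and Orc5 kept values of at least 0.07 and 0.13 whichever libraries were left out. Leaving out shCtr 2 gave a median of -0.23 over the 6 ORC genes, leaving out shOSGEP 1 gave -0.07, and leaving out shCtr 1 gave 0.83, so that these data give no direction for ORC. Orc2 and Orc4 overlap protein-coding genes on the opposite strand (Nif3l1 for Orc2, and Mbd5 and Acvr2a for Orc4), and the library kit was not stated to keep the strand.

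All 3 licensing factors had a Log2FC below 0. Cdt1, which brings the helicase to ORC, stood at 54.8, 155 and 92.3 CPM in shCtr, compared with 35.3, 27.9 and 84.6 CPM in shOSGEP. Each shOSGEP library was below its same-numbered shCtr library, and the groups overlapped because shCtr 1 lay below shOSGEP 3. The Log2FC of Cdt1 was -1.03 (SE 0.584, exact permutation p = 0.2), and part of its reads cannot be told apart from those of Gm20388, a gene on the same strand. Cdc6, the ATPase that works beside it, had a Log2FC of -1.0 (SE 0.576), and Gmnn, which encodes the inhibitor geminin, had -0.31 (SE 0.427).

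All 6 genes of the MCM2-7 helicase were lower in all 3 same-numbered comparisons, and none passed the test. Mcm6 (ENSMUSG00000026355, chromosome 1, 128331590 to 128359664, minus strand) had CPM values of 331, 423 and 449 in shCtr and of 206, 112 and 312 in shOSGEP. Every shOSGEP library was below every shCtr library, with means of 401 ± 62.3 CPM (SD, n = 3) and 210 ± 100 CPM (SD, n = 3). Its Log2FC was -0.93 (SE 0.475, exact permutation p = 0.1). The blocked limma-voom fit gave Mcm6 a Log2FC of -0.66 with an adjusted p of 0.000263. By edgeR without replicate 2 and with the block, these were -0.60 and 0.00958.

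Mcm5 (ENSMUSG00000005410, chromosome 8, 75109569 to 75128439, plus strand) had the lowest Log2FC of the group, -1.29 (SE 0.691, exact permutation p = 0.2). It read 197, 859 and 361 CPM in the shCtr libraries and 134, 99.1 and 345 CPM in the shOSGEP libraries. The size of that difference came from replicate 2, where the log2 ratio was -3.12, compared with -0.55 in replicate 1 and -0.07 in replicate 3. The other 4 helicase genes had a Log2FC of -1.14 (Mcm7), -0.78 (Mcm3), -0.65 (Mcm2) and -0.56 (Mcm4). The library shOSGEP 2 was the lowest of the 6 in all 6 MCM genes. Mcm4 had the steadiest ratios of the 6, at -0.51, -0.96 and -0.48, and Mcm7 overlaps Cops6 and Ap4m1 on the opposite strand. The median of the complex was -0.52 without shOSGEP 2 and -1.36 without shOSGEP 3.

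**Figure D3:**
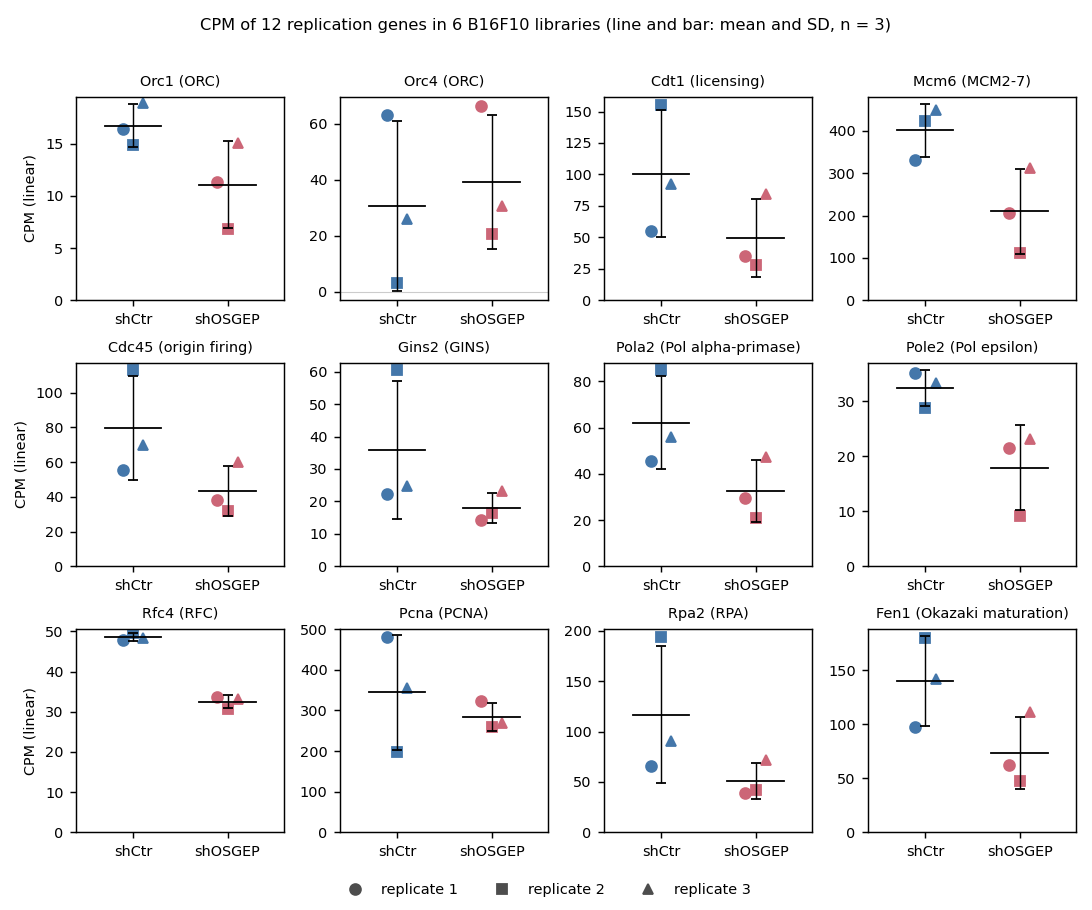
CPM (y axis, linear, from 0) of 12 replication genes in each of the 6 libraries, with one panel per gene, marker shapes for the replicate numbers, and the mean and SD of each group in black. In Mcm6, Pole2 and Rfc4 the groups do not overlap, while in Cdt1, Gins2, Rpa2 and Fen1 the highest point is shCtr 2, and in Orc4 and Pcna shCtr 2 is the lowest point.

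Factors that fire the origin were split. Cdc45, a part of the active helicase, stood at 55.7, 113 and 69.7 CPM in shCtr, compared with 38, 32.1 and 59.9 CPM in shOSGEP. Only shOSGEP 3 lay within the shCtr range, and the Log2FC was -0.87 (SE 0.461, exact permutation p = 0.2). Cdc45 overlaps Ufd1 on the opposite strand. Mcm10, which activates the loaded helicase, had a Log2FC of -0.82 (SE 0.464) and log2 ratios of -0.43, -1.84 and -0.45. The kinase pair differed less. Dbf4, the regulatory subunit, had CPM values of 79.7, 7.62 and 47.3 in shCtr and of 80.1, 21.8 and 50.1 in shOSGEP, with shCtr 2 again the lowest library and a Log2FC of 0.17 (SE 0.803). Cdc7, the catalytic subunit, had a Log2FC of -0.17 (SE 0.795) and log2 ratios of -0.11, 0.35 and -0.57.

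GINS had all 4 subunits below 0, with 3 of the 4 lower in both replicates 1 and 3. Gins2 (chromosome 8, 120578633 to 120589304, minus strand) read 22.4, 60.4 and 24.9 CPM in the shCtr libraries and 14.4, 16.4 and 23.3 CPM in the shOSGEP libraries. The groups overlapped only through shOSGEP 3, which lay above shCtr 1, and the Log2FC was -0.99 (SE 0.521, exact permutation p = 0.2). Gins2 overlaps Gse1 and Gm20388 on the opposite strand. Gins3 stood at 10.6, 5.85 and 10 CPM in shCtr, compared with 10.7, 6.59 and 7 CPM in shOSGEP, giving a Log2FC of -0.13 (SE 0.48). The log2 ratio was 0.01 in replicate 1, 0.17 in replicate 2 and -0.51 in replicate 3. Gins4 had a Log2FC of -0.42 (SE 0.469) with log2 ratios of -0.31, -0.53 and -0.32, and Gins1 had -0.37 (SE 0.455) with -0.74, 0.13 and -0.31. Among the complexes compared, GINS had the medians that moved least between replicates, from -0.47 to -0.20.

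The 3 polymerases had 10 of 12 subunits below 0. In the alpha-primase complex all 4 were below 0, and they were lower in all comparisons except for Prim1 in replicate 2. Pola2, the regulatory B subunit (chromosome 19, 5940542 to 5964202, minus strand), had CPM values of 45.7, 84.8 and 56.1 in shCtr and of 29.7, 20.7 and 47.2 in shOSGEP. Only shOSGEP 3 reached into the shCtr range, and the Log2FC was -0.94 (SE 0.475, exact permutation p = 0.2). Prim2, the large primase subunit, read 60.1, 59.3 and 64 CPM in the shCtr libraries and 42.1, 32 and 47.3 CPM in the shOSGEP libraries, which do not overlap. Its Log2FC was -0.59 (SE 0.38, exact permutation p = 0.1). The blocked limma-voom fit gave Prim2 a Log2FC of -0.50 with an adjusted p of 0.00933. Prim1, the catalytic primase subunit, had a Log2FC of -0.31 (SE 0.532) and Pola1, the catalytic polymerase subunit, had -0.28 (SE 0.894).

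Within polymerase delta, replicates 1 and 3 gave opposite signs for 2 of the 4 subunits. Pold2, an accessory subunit, stood at 48.8, 256 and 82.2 CPM in shCtr, compared with 37.7, 53 and 95.1 CPM in shOSGEP. The single value of 256 CPM in shCtr 2 set its Log2FC of -1.06 (SE 0.673, exact permutation p = 0.5), since the log2 ratio was -0.37 in replicate 1 and 0.21 in replicate 3. Without both replicate 2 libraries its Log2FC was 0.03. Pold1, the catalytic subunit, with the highest GC content of the members (60.7%), had a Log2FC of -0.94 (SE 0.634) and log2 ratios of -0.47, -2.58 and 0.16. Pold3 was lower in each comparison, with a Log2FC of -0.51 (SE 0.405) and ratios of -0.46, -0.63 and -0.48. Pold4, the smallest subunit, had CPM values of 13, 41.4 and 16 in shCtr and of 13.3, 44.9 and 23.3 in shOSGEP, with a Log2FC of 0.21 (SE 0.631). Both replicate 2 libraries were its highest, and it shares an interval with AC109138.7 on the same strand.

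Polymerase epsilon held 2 of the 6 genes without overlap. Pole2, the subunit that links the polymerase to the helicase (ENSMUSG00000020974, chromosome 12, 69201773 to 69228195, minus strand), read 35.1, 28.7 and 33.3 CPM in the shCtr libraries and 21.5, 9.07 and 23.2 CPM in the shOSGEP libraries. Its Log2FC was -0.85 (SE 0.477, exact permutation p = 0.1). The blocked limma-voom fit gave Pole2 a Log2FC of -0.67 with an adjusted p of 0.0006. Pole2 overlaps Gm49384, a protein-coding gene on the same strand. Pole3, a histone-fold subunit, stood at 45.5, 51.2 and 46.2 CPM in shCtr, compared with 36.7, 44.6 and 36 CPM in shOSGEP. The groups were separate but close, with a Log2FC of -0.29 (SE 0.371, exact permutation p = 0.1). Pole4, the other histone-fold subunit, had CPM values of 136, 148 and 111 in shCtr and of 127, 207 and 112 in shOSGEP. Its groups overlapped and its Log2FC was 0.17 (SE 0.407). The catalytic subunit Pole had a Log2FC of -0.44 (SE 0.588), with log2 ratios of 0.04, -1.82 and -0.22.

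All 5 RFC subunits had a Log2FC below 0, from -1.27 to -0.02. Rfc4 (ENSMUSG00000022881, chromosome 16, 23113943 to 23127737, minus strand) had a small spread in both groups. It read 47.9, 49.7 and 48.3 CPM in the shCtr libraries and 33.6, 30.7 and 33.3 CPM in the shOSGEP libraries, with means of 48.7 ± 0.958 CPM (SD, n = 3) and 32.5 ± 1.62 CPM (SD, n = 3). The difference was many times the spread of either group, and yet the Log2FC of -0.58 (SE 0.365) did not pass the edgeR test, which takes its estimate of the spread from all genes as well as from this one. Rfc4 overlaps Eif4a2 on the opposite strand. The blocked limma-voom fit gave Rfc4 a Log2FC of -0.52 with an adjusted p of 0.0071. By edgeR without replicate 2 and with the block, these were -0.52 and 0.0166.

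Rfc3 (chromosome 5, 151642756 to 151651242, minus strand) stood at 56.9, 91.9 and 56.2 CPM in shCtr, compared with 37.5, 46.5 and 47.6 CPM in shOSGEP, again without overlap, with a Log2FC of -0.64 (SE 0.405, exact permutation p = 0.1). Rfc5 had CPM values of 80, 255 and 97.1 in shCtr and of 52.1, 36.9 and 90.1 in shOSGEP. The library shCtr 2 was highest and shOSGEP 3 lay above shCtr 1, and the Log2FC was -1.27 (SE 0.582, exact permutation p = 0.2). Rfc5 overlaps Wsb2 on the opposite strand. Rfc1, the large subunit of the clamp loader, read 141, 19.6 and 104 CPM in the shCtr libraries and 118, 48 and 94.9 CPM in the shOSGEP libraries. It was lower in replicates 1 and 3 and higher in replicate 2, so that its Log2FC was -0.02 (SE 0.694). Rfc2, which overlaps Lat2 on the opposite strand, had a Log2FC of -1.12 (SE 0.619) and log2 ratios of -0.30, -2.30 and 0.06.

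The clamp itself followed replicates 1 and 3. Pcna (chromosome 2, 132249162 to 132253314, minus strand) stood at 480, 197 and 356 CPM in shCtr, compared with 324, 258 and 269 CPM in shOSGEP. Its log2 ratios were -0.57, 0.39 and -0.40, and its Log2FC was -0.28 (SE 0.446, exact permutation p = 0.6). The blocked limma-voom fit gave Pcna a Log2FC of -0.50 with an adjusted p of 0.0112.

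Single-strand binding and Okazaki fragment genes included the member of smallest edgeR p. Rpa2, the middle subunit of RPA (ENSMUSG00000028884, chromosome 4, 132768332 to 132778752, plus strand), had CPM values of 65.9, 194 and 90.3 in shCtr and of 39.2, 42.2 and 71.9 in shOSGEP. Only shOSGEP 3 entered the shCtr range, and the Log2FC was -1.19 (SE 0.526, exact permutation p = 0.2). The blocked limma-voom fit gave Rpa2 a Log2FC of -0.65 with an adjusted p of 0.000246, the smallest of the 47. Rpa1, the large subunit, had a Log2FC of -0.76 (SE 0.47). Rpa3, the small subunit, read 43.5, 21.7 and 28.8 CPM in the shCtr libraries and 43, 69.3 and 31.4 CPM in the shOSGEP libraries, with a Log2FC of 0.61 (SE 0.478, exact permutation p = 0.3). The positive value rested on replicate 2, where shCtr 2 was the lowest and shOSGEP 2 the highest library.

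Fen1, the flap nuclease, stood at 97.7, 180 and 142 CPM in shCtr, compared with 61.8, 47.9 and 111 CPM in shOSGEP. Only shOSGEP 3 lay above the lowest shCtr library, and the Log2FC was -0.93 (SE 0.469, exact permutation p = 0.2). Fen1 overlaps Tmem258 on the opposite strand. Lig1, the ligase that seals the fragments, had a Log2FC of -1.14 (SE 0.598) and log2 ratios of -0.58, -2.80 and -0.32. Dna2, a helicase and nuclease, had a Log2FC of -0.54 (SE 0.508) and ratios of -0.56, -1.19 and -0.11.

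The GC content of the transcript moved with these differences, and mostly in replicate 2. Over the 47 members, the median GC content was 48.6% (50.1% over all genes), and Spearman's rho between GC content and the log2 ratio was -0.38 in replicate 1, -0.77 in replicate 2 and 0.16 in replicate 3. Over 12658 tested genes the same values were -0.08, -0.64 and 0.29. These correlations run across genes of the same libraries and are given as a description. In shCtr 2, members under 45% GC lay below the mean of all libraries (median deviation -1.20 in log2 CPM), and members of at least 50% GC lay above it (median deviation 1.29). All tested genes under 45% and of at least 50% GC deviated in shCtr 2 by medians of -1.83 and 0.70.

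Split by GC content, the 11 members under 45% had median log2 ratios of -0.10, 1.50 and -0.04 in replicates 1, 2 and 3, compared with 0.004, 1.58 and -0.07 for all 2950 genes of that range. The 16 members of at least 50% had -0.51, -2.18 and -0.15, compared with -0.05, -0.68 and 0.08 for 6402 genes. Under 45% GC the members were therefore close to all genes in replicate 2, and at 50% or more they were lower than all genes in each replicate. ORC was the complex of lowest GC content (median 43.8%), and MCM2-7 had a median of 52.2%. The 20 members between 45 and 50% GC had medians of -0.52, -0.92 and -0.31, compared with -0.01, 0.52 and -0.11 for 3306 genes. In shCtr 2 these members deviated by a median of 0.09, where all genes of that range deviated by -0.46. In replicate 3, 20 of these 20 members were lower, against 68.6% of all genes of that range. With offsets for GC content and transcript length the median Log2FC was -0.62 over the members, -0.86 for MCM2-7, -1.07 for RFC, -0.59 for the polymerases, -0.40 for GINS and 0.11 for ORC. The offset fit called 0 members at an adjusted p under 0.05, and 8 passed the threshold of the study, as did 5.47% of all genes. With the offsets and the replicate block the medians were -0.68, -1.01, -0.83, -0.65, -0.40 and 0.15 in the same order, and 9 members passed that threshold, as did 6.87% of all genes.

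**Figure D4:**
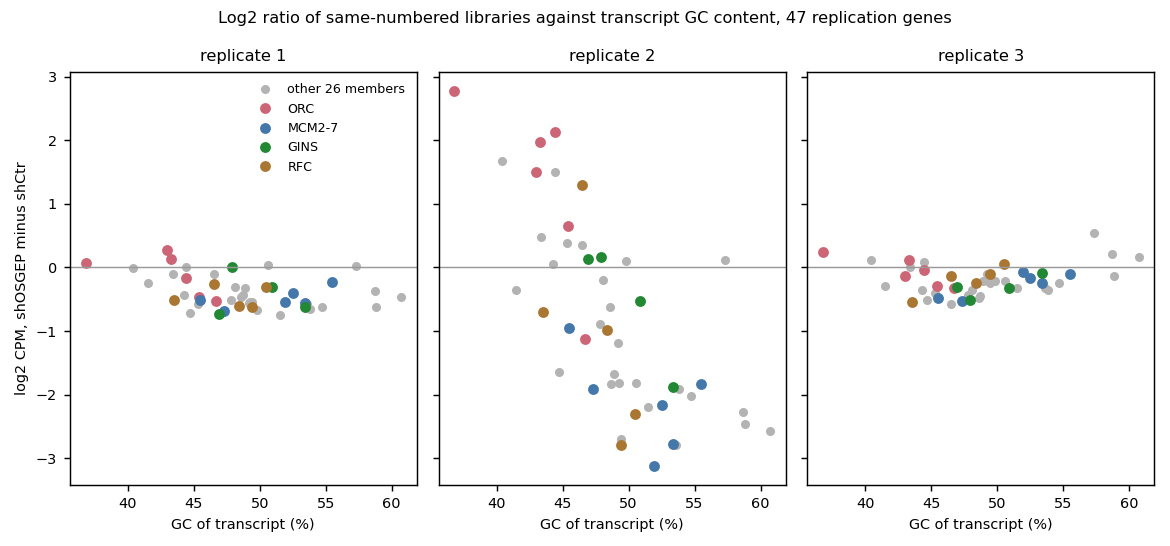
Log2 CPM in shOSGEP minus log2 CPM in shCtr of same-numbered libraries (y axis) against the GC content of the transcript in percent (x axis) for the 47 members, one panel per replicate, with ORC, MCM2-7, GINS and RFC in colour and the other members in grey. In replicate 2 the points run from 2.78 at a GC content of 36.8% down to -3.12, while in replicates 1 and 3 they stay between -0.75 and 0.54.

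Other genes tied to replication and division were mostly below 0 as well, with medians that differed between lists. Among 25 fork and origin accessory factors, 22 were below 0 with a median Log2FC of -0.40 and 0 were called. Chtf18, of the alternative clamp loader, had -0.99 (SE 0.579, exact permutation p = 0.2), and Rnaseh2c, a subunit of the RNase that removes RNA from DNA, had -1.39 (SE 0.835, exact permutation p = 0.6). Of 9 replication-coupled chromatin factors, 8 were below 0 with a median of -0.70. Chaf1b, a histone chaperone subunit, had -1.45 (SE 0.666, exact permutation p = 0.2), and Asf1b, another histone chaperone, had -0.91 (SE 0.481, exact permutation p = 0.2). Among 13 E2F and RB family genes, 10 were below 0 with a median of -0.17, and the median log2 ratio in replicate 2 was 0.32. E2f2, an activator, had CPM values of 25.2, 88.3 and 36.3 in shCtr and of 15.3, 5.27 and 31.4 in shOSGEP (Log2FC -1.53, SE 0.736, exact permutation p = 0.2), and E2f4 had -0.70 (SE 0.395, exact permutation p = 0.1).

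Genes of G2 and mitosis were mostly lower as well. Of 19 such genes, 18 were below 0 with a median of -0.74, all 19 were lower in replicate 1 and in replicate 3, and 16 in replicate 2. Birc5, a chromosomal passenger protein, read 130, 240 and 135 CPM in the shCtr libraries and 83.9, 52.7 and 99.5 CPM in the shOSGEP libraries, without overlap. It was the only gene of these lists past the threshold of the study (Log2FC -1.10, SE 0.449, exact permutation p = 0.1), with an adjusted p of 1.00 by edgeR's quasi-likelihood test. Cdc20, which activates the anaphase-promoting complex, had a Log2FC of -1.36 (SE 0.619, exact permutation p = 0.2). Whether replication genes differed from these division genes was not tested. ANN codons made up a median of 28.9% of the coding sequences of the 47 members and 27% of those of 11551 tested genes with a coding sequence, with members ranging from 19.5% (Pold1) to 35.3% (Rfc1).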

How the data were processed

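RNA of 3 shCtr and 3 shOSGEP infections of B16F10 cells was sequenced from 500 ng of RNA after polyA selection (TruSeq, paired reads of 100 bases). The authors trimmed reads with TrimGalore, aligned them with STAR 2.6.1d to GRCm38 within nf-core/rnaseq and quantified genes with Salmon 1.4.0. The values deposited by the authors are estimated counts per gene, written as whole numbers, unnormalized. The annotation release was not given in the sources used here. Depth was 18915587 to 29487384 counts per library.

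Groups came from the labels. Genes were kept by filterByExpr (minimum count 10, minimum total 15), scaled by TMM and tested two-sided with edgeR 4.0.16 (R 4.3.3, quasi-likelihood F-test without a block, Benjamini-Hochberg over 12669 genes). SE is the Log2FC divided by the square root of F. Log2 ratios of same-numbered libraries used log2 CPM with a prior count of 2. Exact permutation p-values, two-sided, compared group means of the same log2 CPM and not the Log2FC printed beside them. Alternatives were DESeq2 1.42.0, limma-voom (limma 3.58.1) with sample quality weights, other scalings and filters, a replicate block, offsets for GC content and length (natural splines with 5 degrees of freedom on GENCODE M21 transcripts) and leaving libraries out. The code was tested on simulated data.

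The members and lists were chosen with earlier results of these data known. Values in all libraries are given for the member of smallest p in each complex, the 3 largest and the 3 smallest Log2FC in size, all positive Log2FC and all members without overlap between groups. For other lists, the 2 genes of smallest p are named. Whether the labels' numbers pair libraries was checked by correlating deviations from group means across genes (0.811, 0.557 and 0.196 for numbers 1 to 3, with up to 0.491 between different numbers). Every same-numbered value passed the limit of 0.1, so the numbers were used for the same-numbered comparisons and for the block. Some libraries of different numbers passed it too, with 0.491 for shCtr 3 and shOSGEP 1 and 0.138 for shCtr 2 and shOSGEP 3. The check therefore does not establish the pairing. The 3 infections are the replicates. P-values of fits without a block set differences against the spread between them. Fits with a block use the spread that remains after the replicate number is taken out. Both kinds of fit also draw on a spread estimated over all genes.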

Additional observations from a re-analysis of the deposited data

How the results depend on the processing

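Over 20 alternative settings, 866 of 940 Log2FC values of single members kept their direction and side of the threshold, 32 became called and 42 changed sign, and 34 of the 47 genes never changed sign. The number called (0) became 23 by limma-voom with weights for sample quality and replicate block and 9 without replicate 2 with replicate block. Those fits called 4.34% and 1.65% of all genes lower. The number of members called stayed at 0 with the replicate block in edgeR, at an adjusted p under 0.1 and without any single library. The number past the threshold of the study (0) became 2 by DESeq2, 6 by limma-voom, 1 by RLE scaling and 2 with no filter. Of all genes, 2.92%, 4.42%, 2.02% and 2.75% passed in these fits. The member count became 2 with the replicate block, 8 with GC and length offsets and 9 with offsets and replicate block. The shares of all genes were 2.94%, 5.47% and 6.87%. The member count was 15 by limma-voom with replicate block and 6 without replicate 2 with replicate block, against 11.4% and 6.85% of all genes. It ranged from 0 to 10 when libraries were left out, with 7 without shCtr replicate 1 and 10 without shOSGEP replicate 3, where 3.5% and 2.98% of all genes passed. The median over the 47 members ranged from -0.73 to -0.32 when libraries were left out. The RFC median was -1.07 with GC and length offsets. With all 6 libraries in edgeR, calls were the same with and without the replicate block.

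Osgep was called by DESeq2 (-3.32), by limma-voom with replicate block (-2.23) and without replicate 2 with replicate block (-2.12), and its Log2FC ranged from -4.05 to -2.11 when libraries were left out. Upper-quartile scaling moved the median of all genes from -0.03 to 0.07 and gave 0.029 for Orc6 and 0.047 for Rfc1. Rfc1 was 0.29 with the replicate block and 0.044 with offsets and block. Pole4 was -0.46 with offsets, -0.31 with offsets and block, -0.060 by limma-voom with block and -0.046 without replicate 2 with block, and Orc2 was -0.089 and -0.096 in the last 2 of these. Leaving libraries out changed signs in 13 genes, whose values ranged from -1.10 to 0.67 for Cdc7, -0.33 to 0.88 for Dbf4, -0.38 to 0.066 for Gins3, -0.26 to 0.89 for Orc2, -0.26 to 1.45 for Orc4, -0.39 to 0.19 for Orc6, -0.56 to 0.039 for Pcna, -0.77 to 0.22 for Pola1, -1.76 to 0.029 for Pold2, -0.33 to 0.90 for Pold4, -0.13 to 0.34 for Pole4, -0.65 to 0.14 for Prim1 and -0.50 to 0.49 for Rfc1.
Causes of these changes were not tested, nor was the part of depth, with a lowest count of 59 for a member in a library.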
